A study of Xenopus tropicalis with 12 samples.

Results

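Of 14320 genes tested in the hind limb of Xenopus tropicalis tadpoles, 67 were abundant nuclear genes with short transcripts. They were chosen by their measured level and by their length, in 3 steps. All genes that passed a filter on low counts were ordered by the mean of the 4 group means in CPM (counts per 1000000 counts of a library, with library sizes scaled by TMM, a method that corrects for library composition). The 100 highest were taken. Those with a summed exon length under 1000 bp that did not lie on the mitochondrial genome were kept. The other 33 comprised 29 nuclear genes of 1000 bp or more and 4 mitochondrial genes. All 67 passed the filter on low counts. Levels and length chose these genes, so their high level and short length are descriptions and not results.

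RNA sequencing was carried out on hind limbs of wild type tadpoles and of TRα (-/-) tadpoles, which lack thyroid hormone receptor α, with or without 10 nM T3 for 18 h. Per the labels, tadpoles were at stages 52 to 54 and both genotypes had the same parents. The groups were untreated wild type, wild type with T3, untreated TRα (-/-) and TRα (-/-) with T3. Each of the 4 groups had 3 libraries made from 1 RNA sample of whole hind limbs merged from several tadpoles, 12 libraries in all. The libraries of a group are technical replicates, so a p-value here measures only the spread between libraries of 1 pool. Differences between the pools in stage or dissection cannot be told apart from genotype or T3.

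T3 is the active thyroid hormone and drives amphibian metamorphosis. It binds thyroid hormone receptors, nuclear proteins that sit on DNA and repress many target genes without hormone and activate them with it. The hind limb grows and differentiates early in this process, and TRα is the main receptor in the tadpole before metamorphosis. Short and very abundant nuclear transcripts in vertebrate tissues commonly encode small housekeeping proteins, among them those of the ribosome. Which proteins the 67 genes encode was not established here: 0 of 67 identifiers matched the annotation used, so genes are given by their Ensembl identifier and no role is assigned to any of them. For the same reason the TRα gene itself and the markers of limb cell types were not analysed here.

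The libraries held 32649742 to 52430305 counts. Relative spread between libraries of a group beyond counting noise was 0.0421 (biological coefficient of variation, here technical). Replicate 2 of wild type with T3 stood furthest from the other libraries of its group, with a chi-square per degree of freedom of 10.7 and 10.3 against them, while other pairs lay between 1.86 and 6.19. Without that library, the same number of the 67 genes was called in each comparison below.

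The 67 genes took a large part of all counts in 3 of the 4 groups and less in wild type with T3. Their share of all gene counts was 34.2 ± 0.088% (SD, n = 3) in untreated wild type, 15.95 ± 0.36% in wild type with T3, 35.8 ± 0.55% in untreated TRα (-/-) and 29.9 ± 0.21% in TRα (-/-) with T3. The highest library of wild type with T3 held 16.2% and the lowest library of any other group held 29.8%, so wild type with T3 did not overlap with the rest. The 29 nuclear genes of the first 100 with at least 1000 bp held 17.5 ± 0.083%, 16.9 ± 0.22%, 18.4 ± 0.057% and 20.1 ± 0.075% in the same order. The ratio of both shares, which does not depend on scaling, was 1.95 ± 0.012, 0.946 ± 0.014, 1.94 ± 0.026 and 1.49 ± 0.010. A share sums genes that moved in both directions: of the 29, 15 were lowered and 10 raised by T3 in wild type, as given below. All genes of the mitochondrial genome together, also those outside the first 100, held between 1.56% and 2.80% on average. The part left to all remaining genes was 46.7 ± 0.082% in untreated wild type and 64.7 ± 0.57% in wild type with T3. In whole limbs, fewer cells of a type and less RNA per cell cannot be told apart.

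**Figure D1:**
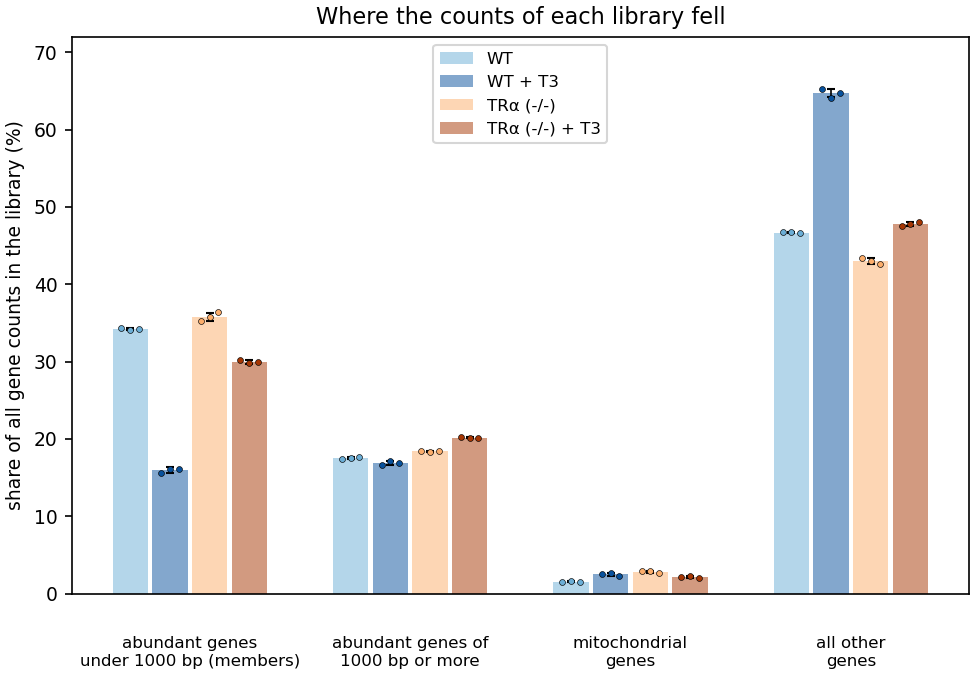
Share of all gene counts (%, linear axis from 0) taken by sets of genes. The sets are the 67 abundant short nuclear genes and the 29 longer nuclear genes (at least 1000 bp) of the first 100. Further sets are all mitochondrial genes and all other genes. Bars are means of 3 technical libraries, error bars are SD and points are libraries. The first set held 34.2% in untreated wild type and 15.95% in wild type with T3, and the second lay between 16.9% and 20.1% in all groups. A share is a sum over genes: within the second set 15 genes were lowered and 10 raised by T3 in wild type.

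The median level of the 67 genes was 4748 CPM in untreated wild type, 1514 CPM in wild type with T3, 4931 CPM in untreated TRα (-/-) and 4355 CPM in TRα (-/-) with T3. Per kilobase of exon the medians were 9073, 2663, 9360 and 7275 CPM per kb. The longer abundant genes had medians of 3651, 2446, 4232 and 4352 CPM per kb. Level and length chose both sets, so the difference between them per length is set by the selection. The median of the short genes was lowest in wild type with T3 on both scales. Of the 67, 64 were also among the 100 highest genes of untreated wild type alone, 67 of untreated TRα (-/-), 63 of TRα (-/-) with T3 and 50 of wild type with T3. The mean of these 4 groups chose the 67, so such overlap is largely set by the selection. The lower number in wild type with T3 restates the lower level there and is no separate evidence.

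Most of the 67 genes had their lowest group mean in wild type with T3, but no single order of the 4 group means held in most. In 32 untreated TRα (-/-) was highest, followed by untreated wild type, TRα (-/-) with T3 and wild type with T3. This order was found in 6.84% of all tested genes. In 28 the first pair was exchanged, an order found in 16.8% of all tested genes. In 4 others wild type with T3 was also lowest, and 3 genes each had an order of their own. The profile over the 4 group means correlated with the median profile of the 67 at a Pearson r of at least 0.95 in 63 genes (lowest 0.957). The median profile comes from the same 67 genes, so a high r is partly set by construction and only serves to find genes that depart. The share of all tested genes that reach this r was not analysed here. The other 4 were ENSXETG00000024043 (0.55), ENSXETG00000027606 (0.18), ENSXETG00000025663 (-0.21) and ENSXETG00000024626 (-0.93), with 4 points each and no p. These profiles are seen row by row in the heatmap of all 67 genes.

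**Figure D2:**
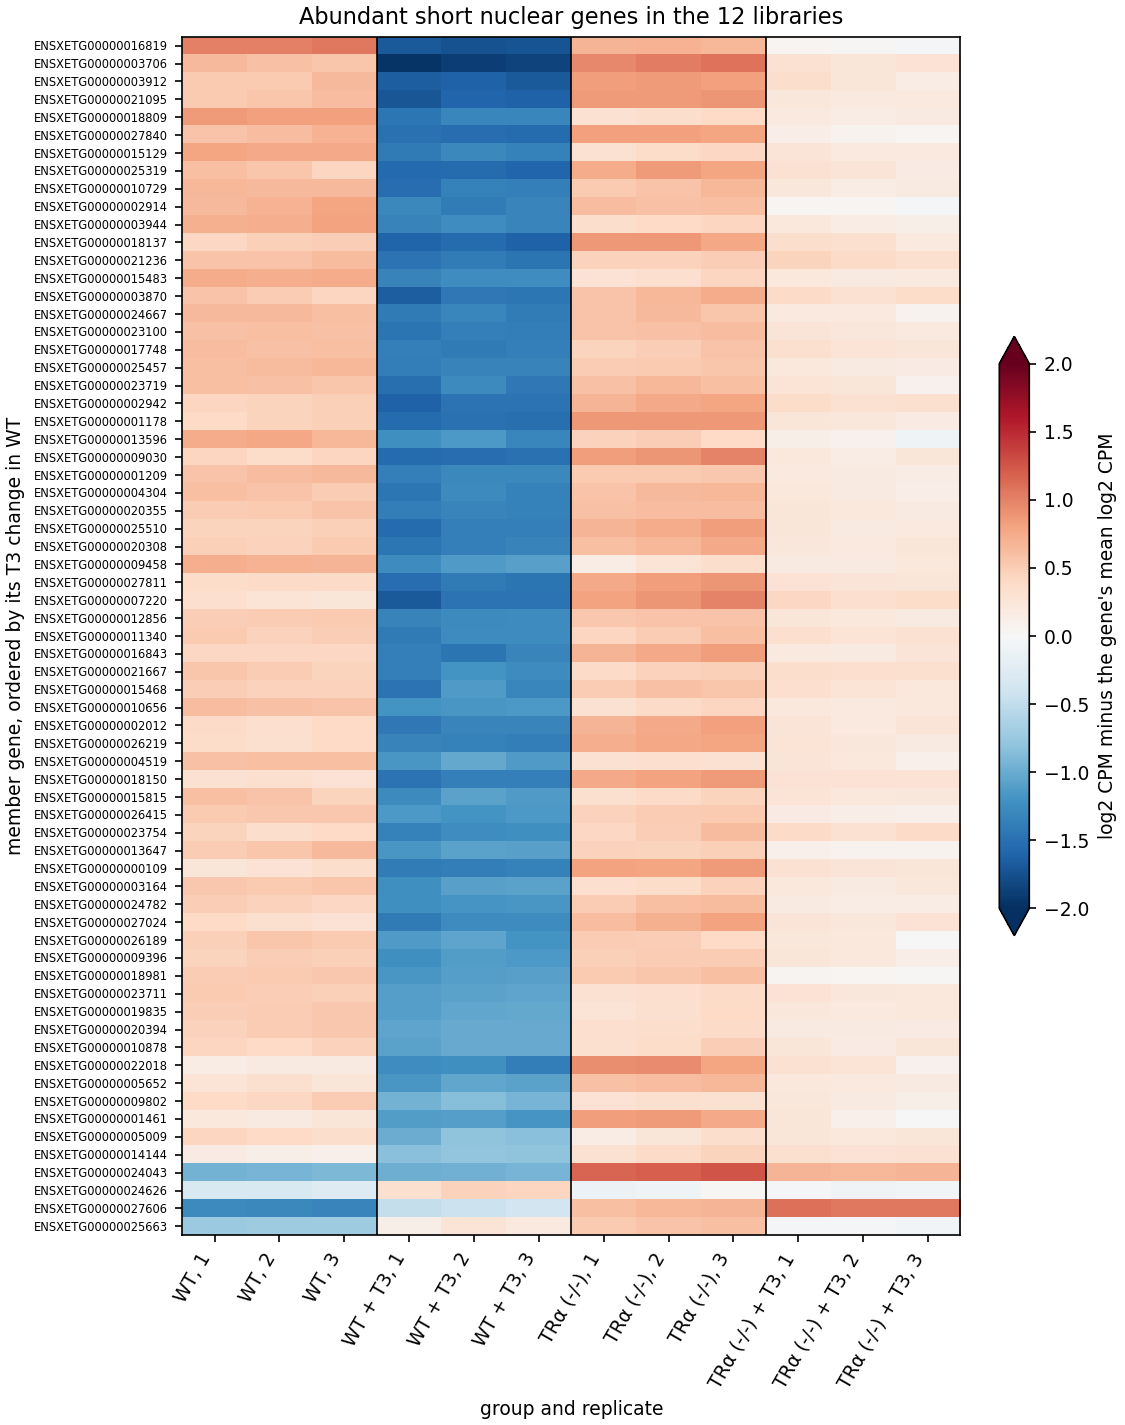
Level of each of the 67 genes (rows, ordered by the T3 change in wild type) in the 12 libraries (columns, in 4 groups of 3), as log2 CPM minus the mean of the gene, with the colour scale ending at -2 and 2. Most rows are blue in the 3 libraries of wild type with T3 and near one another in the remaining groups. The lowest rows, which include ENSXETG00000024043 and ENSXETG00000025663, depart from this.

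The first comparison asked how T3 changed these genes in wild type. edgeR's quasi-likelihood test was fitted over all tested genes, and a gene was called at a Benjamini-Hochberg adjusted p under 0.05 together with a change of 2-fold or more. Of the 67 genes, 62 were lowered, 0 were raised and 5 were not called, with the same counts by DESeq2. At an adjusted p under 0.05 whatever the fold, 63 were lower and 3 higher, with the same counts at an unadjusted p. In all tested genes 25.1% were lowered and 22.8% raised by 2-fold or more, and 45.9% were lower and 42.9% higher by adjusted p alone. The median log2 change of the 67 was -1.80 (range -2.74 to 0.92), against -0.05 over all tested genes. In 63 of the 67 every library with T3 was below every library without it, as in 46.1% of all tested genes. Within the 62 lowered genes the median was -1.83 with an SD of 0.27, the smallest -1.27 and the largest -2.74. The call uses the same change and so limits this spread. Over all 67 the SD was 0.65. A gene at the median of the 62 kept 28.1% of its TMM-scaled CPM, which is a relative level. With scaling by total counts alone 55 of the 67 were lowered and 3 raised, with a median of -1.26. The median of all tested genes then moved to 0.49.

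The 5 most abundant of the 67 were all lowered. ENSXETG00000021236, the highest, lies at GL173096.1:131590-134900 on the plus strand of the JGI 4.2 assembly with 4 exon blocks and 865 bp of exon. It was at 17524, 17569 and 18306 CPM in untreated wild type, at 4272, 4503 and 4293 with T3, at 16319, 16271 and 16645 in untreated TRα (-/-), and at 16136, 15394 and 14817 in TRα (-/-) with T3. The libraries of wild type with T3 stood alone at the low end. The log2 change in wild type was -2.03 ± 0.029 (SE, edgeR adjusted p = 4.89e-28).

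ENSXETG00000007220 (GL172810.1:2026002-2028725, plus strand, 895 bp) was at 14145, 13590 and 13209 CPM in untreated wild type and at 3498, 4036 and 4010 with T3. In TRα (-/-) it was at 19592, 20695 and 22181 CPM without T3 and at 14864, 14107 and 14503 with it. The wild type groups did not overlap, and untreated TRα (-/-) was the highest group. Its log2 change with T3 in wild type was -1.83 ± 0.043. ENSXETG00000009030 changed by -1.93 ± 0.033, ENSXETG00000023100 by -1.996 ± 0.027 and ENSXETG00000003706 by -2.49 ± 0.034 on the log2 scale.

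The largest decrease was that of ENSXETG00000016819 (GL172749.1:1131560-1137384, plus strand, 902 bp). It was at 3897, 3898 and 3994 CPM in untreated wild type and at 604, 574 and 583 with T3, while TRα (-/-) had 3078, 3130 and 3067 without T3 and 1994, 1970 and 1883 with T3. Its log2 change in wild type was -2.74 ± 0.030 (edgeR adjusted p = 3.94e-30), which is 6.69-fold lower. This gene and the 67 as a whole thus had their lowest level in the same group. The smallest decrease among the 62 was that of ENSXETG00000005009, from 6281, 6149 and 5926 CPM to 2348, 2656 and 2609. It came to -1.27 ± 0.041 on the log2 scale, and with scaling by total counts alone it was -0.73 and no longer called.

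In TRα (-/-) the same comparison gave changes under 2-fold, in the same direction for most genes. By edgeR and by DESeq2, 0 of the 67 were called in either direction. At edgeR's adjusted p under 0.05 whatever the fold, as at an unadjusted one, 63 were lower with T3 and 1 was higher. Of all tested genes 7.14% were called raised and 9.64% called lowered, and 37.1% were higher and 37.9% lower by adjusted p alone. The median log2 change of the 67 was -0.39 (range -0.74 to 0.42), against -0.02 over all tested genes. Among the 62 genes lowered in wild type a gene at the median kept 75.9% of its TMM-scaled CPM. The log2 change in TRα (-/-) was a median 0.21 of that in wild type, with a range from 0.016 to 0.52. With scaling by total counts alone the median log2 change of the 67 in TRα (-/-) was -0.27.

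The genes with the greatest change in TRα (-/-) were ENSXETG00000003706, ENSXETG00000027840 and ENSXETG00000009030. ENSXETG00000003706 was at 12309, 12906 and 13553 CPM without T3 and at 7888, 7526 and 7724 with T3. The groups did not overlap, and the log2 change was -0.74 ± 0.032 (edgeR adjusted p = 6.31e-17). In wild type the same gene went from 9953, 9516 and 9325 CPM to 1640, 1718 and 1760. At the other end, ENSXETG00000005009 changed by -0.02 ± 0.040 in TRα (-/-) (edgeR adjusted p = 0.669), with 5175, 5480 and 5943 CPM without T3 and 5507, 5382 and 5483 with it. Its groups overlapped in TRα (-/-).

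**Figure D3:**
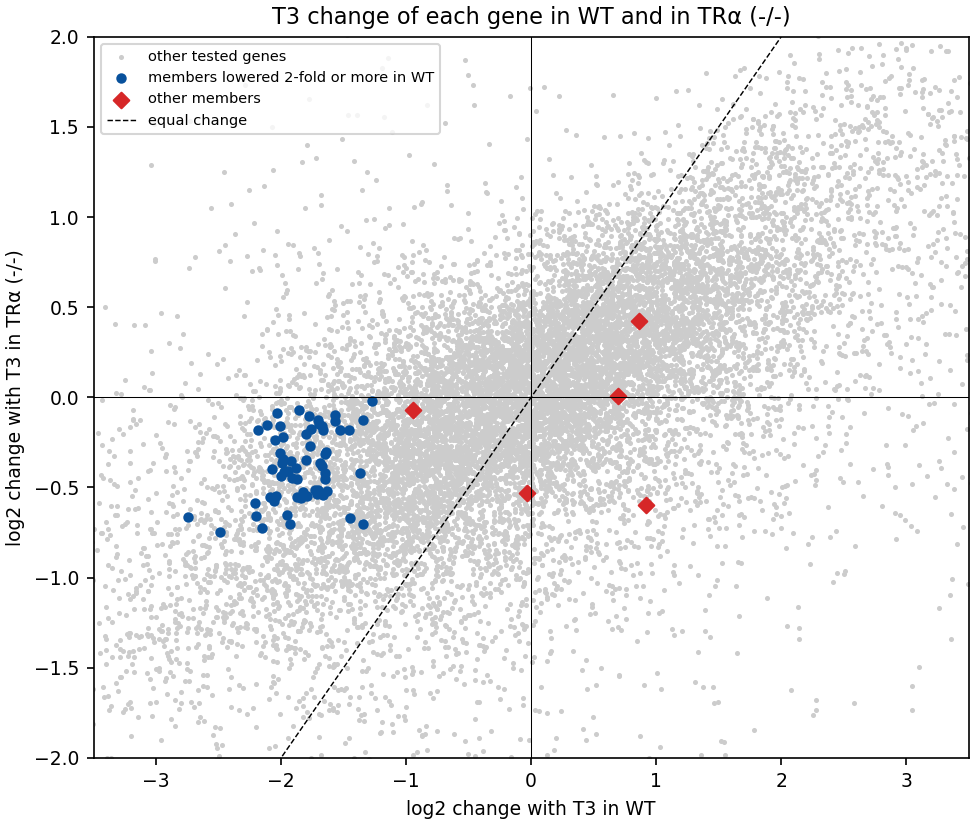
Log2 change with T3 in wild type (horizontal) against that in TRα (-/-) (vertical) for each tested gene in grey, the 62 genes of the set that were lowered in wild type as blue circles and the other 5 as red diamonds, with a dashed line of equal change; grey genes beyond the axis limits are not drawn. The blue circles lie between -2.74 and -1.27 on the horizontal axis and between -0.74 and -0.02 on the vertical axis.

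Without T3, the genotypes differed little in these genes. Only 3 of the 67 were called, all higher in TRα (-/-), and 64 were not called. Of all tested genes 13.0% were higher and 7.35% lower in TRα (-/-) by 2-fold or more. The median log2 difference was 0.05 (range -0.47 to 2.13), against 0.01 over all tested genes, and with scaling by total counts alone the median was -0.036. By edgeR's adjusted p alone, as at an unadjusted p under 0.05, 31 were higher and 22 lower in TRα (-/-), which is 53 of 67 beside 38.9% higher and 38.3% lower of all tested genes. DESeq2 called 3 higher and 0 lower at 2-fold or more. ENSXETG00000023100 was at 10371, 10502 and 10412 CPM in untreated wild type and at 10267, 10382 and 10684 in untreated TRα (-/-). These libraries overlapped, with a log2 difference of 0.0022 ± 0.026.

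The lowest in untreated TRα (-/-) relative to untreated wild type was ENSXETG00000018809, with 3216, 3328 and 3434 CPM against 4684, 4580 and 4592. This was a log2 difference of -0.47 ± 0.033, under 2-fold. ENSXETG00000009458 and ENSXETG00000015129 followed with -0.44 ± 0.040 and -0.40 ± 0.031.

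With T3, TRα (-/-) was higher than wild type in nearly the whole set. Of the 67 genes 65 were called higher in TRα (-/-), 0 lower and 2 not called, with the same counts by DESeq2. Those 2 were lower by less than 2-fold, at an adjusted and an unadjusted p under 0.05. In all tested genes 11.4% were higher and 3.77% lower by 2-fold or more, and 37.6% were higher and 37.7% lower by adjusted p alone. The median log2 difference was 1.54 (range -0.46 to 2.18), against -0.01 over all tested genes. With scaling by total counts alone the count of genes called higher was 37 and the median 1.03, while the median of all tested genes moved to -0.51. Scaling moves all genes by about the same log2 amount. The distance of the 67 from the median of all tested genes therefore stayed at 1.54 by construction, which is no separate evidence.

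ENSXETG00000003706 had the largest difference, with 7888, 7526 and 7724 CPM in TRα (-/-) with T3 against 1640, 1718 and 1760 in wild type with T3. The log2 difference was 2.18 ± 0.033 (edgeR adjusted p = 4.90e-26), or 4.52-fold. ENSXETG00000007220 and ENSXETG00000003912 differed by 1.91 ± 0.043 and 1.90 ± 0.039. The smallest called difference was that of ENSXETG00000009802, with 3006, 2919 and 2798 CPM against 1347, 1424 and 1356. It was 1.08 ± 0.032 on the log2 scale and 0.57 with total counts alone, which is under 2-fold.

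The interaction asked whether the change with T3 differed between genotypes, as the log2 change in TRα (-/-) minus that in wild type. Of the 67 genes 59 had a positive interaction, 1 a negative one and 7 were not called. Of all tested genes 17.7% were positive and 16.6% negative. By adjusted p alone 63 of the 67 were positive and 4 negative, beside 39.4% and 38.1% of all tested genes. The median was 1.47 (range -1.52 to 2.08), against 0.01 over all tested genes. Scaling by total counts alone gave 38 positive and 2 negative with a median of 1.05, while the median of all tested genes moved to -0.41. The greatest values were those of ENSXETG00000016819 (2.08 ± 0.040), ENSXETG00000018809 (2.002 ± 0.047) and ENSXETG00000015129 (1.97 ± 0.044). The interaction shares all libraries with the comparisons above and is no separate evidence.

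The calls fell into few patterns. In 59 genes the T3 decrease in wild type, the higher level of TRα (-/-) with T3 and the positive interaction came together. All of these calls use the same libraries of wild type with T3, so they are not separate evidence. In 3 more the first pair was called and the interaction lay under 2-fold: ENSXETG00000005652 (0.95), ENSXETG00000022018 (0.77) and ENSXETG00000001461 (0.64). The remaining 5 were not lowered in wild type. Of these 8 genes, ENSXETG00000005652, ENSXETG00000001461 and ENSXETG00000014144 are named after their values were seen.

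**Figure D4:**
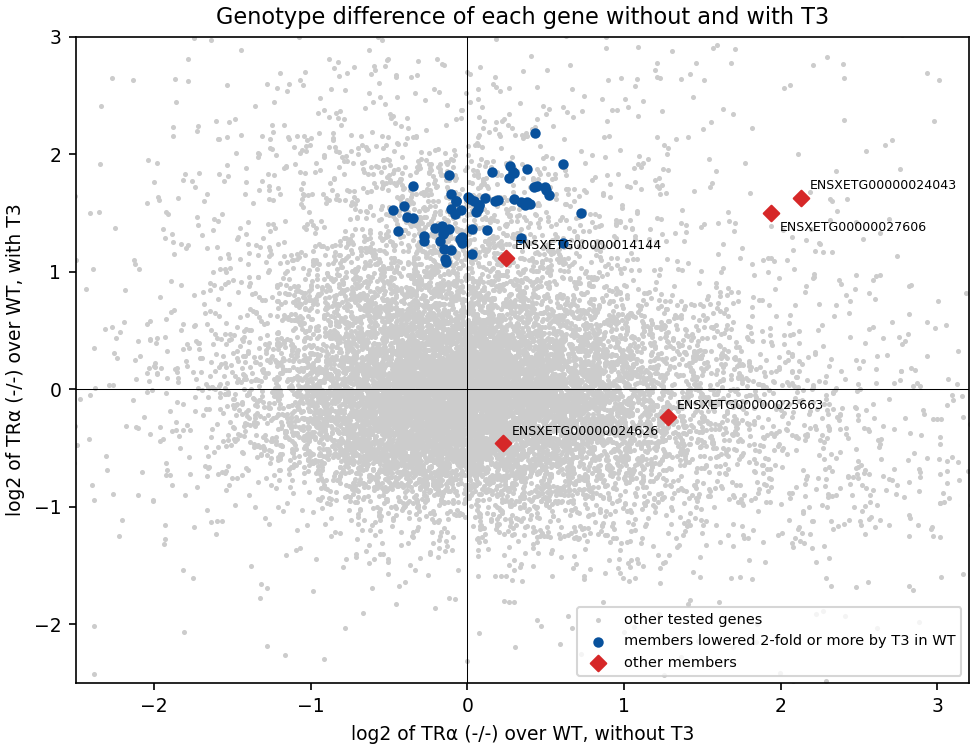
Log2 difference of TRα (-/-) over wild type without T3 (horizontal) and with T3 (vertical) for each tested gene in grey, the 62 genes of the set lowered by T3 in wild type as blue circles and the other 5 as labelled red diamonds; grey genes beyond the axis limits are not drawn. The blue circles stand above 1 on the vertical axis and lie between -0.47 and 0.72 on the horizontal axis.

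ENSXETG00000025663 had the highest T3 change in wild type and the lowest interaction of the 67. It lies at GL172993.1:952559-956327 on the minus strand with 3 exon blocks and 712 bp. It was at 4246, 4328 and 4366 CPM in untreated wild type and at 7723, 8608 and 8156 with T3, and at 10223, 10514 and 10734 in untreated TRα (-/-) and 7002, 6977 and 6814 with T3. T3 thus moved its libraries up in wild type and down in TRα (-/-), with no overlap in either. The log2 changes were 0.92 ± 0.030 and -0.60 ± 0.030, both under 2-fold, and the interaction was -1.52 ± 0.042 (edgeR adjusted p = 5.31e-21). Without T3 it was 1.28 ± 0.030 higher in TRα (-/-). It made up 1.16% of the counts of the 67 genes in untreated wild type, 6.84% in wild type with T3, 2.53% in untreated TRα (-/-) and 2.18% in TRα (-/-) with T3.

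Neighbouring genes of similar size lie near ENSXETG00000025663 on its scaffold, and they are named after their values were seen. ENSXETG00000025664 (3 exon blocks, 584 bp) had group means of 0.85 CPM in untreated wild type, 35.4 in wild type with T3, 1173 in untreated TRα (-/-) and 547 in TRα (-/-) with T3. ENSXETG00000025667 (3 exon blocks, 581 bp) had 0.47, 25.03, 1100 and 630 CPM. Both had their highest level in untreated TRα (-/-), as ENSXETG00000025663 did. ENSXETG00000001141 (3 exon blocks, 598 bp), on the other side of it, had 1094, 1866, 1225 and 1464 CPM and was highest in wild type with T3. Further on that side ENSXETG00000033912 had 0.86, 0.15, 0.31 and 0.29 CPM, and ENSXETG00000029988 had 0.38, 0.087, 0.25 and 0.35 CPM. Both of these (3 exon blocks, 642 bp) were thus very low, and highest in untreated wild type. How reads that map to several genes were counted is not stated, and how alike these genes are in sequence was not analysed here, so counts among them are uncertain.

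ENSXETG00000024043 and ENSXETG00000027606 are neighbours, 31553 bp apart on the plus strand of GL172650.1, and are the only pair of the 67 within 100 kb of each other. Both have 5 exon blocks. ENSXETG00000024043 (2211914-2214658, 671 bp) was at 1483, 1506 and 1540 CPM in untreated wild type and at 1446, 1464 and 1508 with T3, which overlap. In TRα (-/-) it was at 6428, 6540 and 6842 CPM without T3 and at 4597, 4528 and 4563 with T3. The genotypes differed by 2.13 ± 0.028 on the log2 scale without T3 (edgeR adjusted p = 2.33e-27) and by 1.63 ± 0.028 with it.

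ENSXETG00000027606 (2246212-2250371, 779 bp) was at 984, 975 and 954 CPM in untreated wild type, at 1701, 1770 and 1815 with T3, at 3590, 3774 and 3805 in untreated TRα (-/-), and at 5086, 4946 and 4951 in TRα (-/-) with T3. It was the one gene of the 67 that was higher with T3 in TRα (-/-) by adjusted p, at 0.42 ± 0.029 (edgeR adjusted p = 8.30e-13). Its genotype differences were 1.94 ± 0.030 without T3 and 1.503 ± 0.030 with T3. The latter was 0.996 and not called with scaling by total counts alone. Further along the scaffold ENSXETG00000024046 (5 exon blocks, 767 bp), named after its values were seen, had group means of 20.8, 299, 525 and 525 CPM in the same order of groups. Other genes on that side, also named after their values were seen, did not all share the same order of groups. ENSXETG00000027604 had 1.35, 14.4, 22.2 and 54.1 CPM, and ENSXETG00000034152 had 0.21, 2.39, 2.37 and 4.65 CPM. ENSXETG00000024049 had 0.44, 38.8, 38.3 and 25.8 CPM, and ENSXETG00000033720 had 1.18, 0.10, 2.10 and 1.04 CPM. All of these but ENSXETG00000033720 were lowest in untreated wild type, as ENSXETG00000027606 was. The spans of ENSXETG00000027604 and ENSXETG00000034152 overlap from the same start, so their counts may not be separate.

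ENSXETG00000024626 (GL173369.1:334930-336628, plus strand, 3 exon blocks, 608 bp) was at 3861, 3862 and 3978 CPM in untreated wild type and at 5980, 6536 and 6414 with T3. TRα (-/-) had 4373, 4506 and 4832 CPM without T3 and 4633, 4537 and 4599 with T3, which overlap. Its log2 change with T3 in wild type was 0.69 ± 0.033 and its interaction was -0.69 ± 0.046. With scaling by total counts alone the T3 changes in wild type of ENSXETG00000025663, ENSXETG00000027606 and ENSXETG00000024626 were 1.46, 1.399 and 1.23, and all 3 were then called raised.

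ENSXETG00000014144 kept the shape of the majority at a smaller size. It was at 4004, 3851 and 3838 CPM in untreated wild type and at 1991, 2062 and 2038 with T3, a log2 change of -0.94 ± 0.030, just under 2-fold. The TRα (-/-) libraries lay between 4359 and 4835 CPM, above all libraries of untreated wild type. In the most frequent orders untreated wild type was instead above TRα (-/-) with T3. Together the 62 lowered genes held 32.9 ± 0.084%, 13.3 ± 0.28%, 33.2 ± 0.50% and 27.5 ± 0.21% of all counts in untreated wild type, wild type with T3, untreated TRα (-/-) and TRα (-/-) with T3. The other 5 held 1.34 ± 0.0055%, 2.64 ± 0.078%, 2.59 ± 0.056% and 2.40 ± 0.020%.

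The decrease was compared with that in like genes, as counts and medians with no test. Among the 29 longer nuclear genes of the first 100, 15 were lowered and 10 raised by T3 in wild type, with a median of -1.02. Among 80 nuclear genes under 1000 bp ranked next, up to rank 500, 37 were lowered and 15 raised. Their median was -0.10, with a wide spread (quartiles -1.92 and 0.74). Among 313 longer genes of those ranks, 78 were lowered and 107 raised, with a median of 0.22. For nuclear genes under 1000 bp ranked above 500, 24.1% were lowered and 28.3% raised, against 25.1% and 22.8% of all tested genes. With T3, TRα (-/-) was called higher in 15 of the 29 and in 29 of the 80.

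Over the nuclear genes among the 500 most abundant, the lowered genes were most frequent at short lengths. The groups under 1000 bp include the 67 genes, of which 62 were lowered, so they are no separate evidence on length. Of the 80 other genes under 1000 bp, 37 were lowered, with a median of -0.10 and quartiles of -1.92 and 0.74. Of 47 genes under 500 bp 41 were lowered (median -1.71), of 52 from 500 to 750 bp 33 were lowered (median -1.61), and of 48 from 750 to 1000 bp 25 were lowered (median -1.35). Of 87 genes from 1000 to 1500 bp 29 were lowered (median 0.14), of 82 from 1500 to 2000 bp 20 (median 0.24), and of 173 genes of 2000 bp or more 44 (median 0.22). Within the 67 the change had little relation to length, with a Pearson r of 0.13 and a Spearman rho of -0.03 across genes, which are not independent replicates.

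**Figure D5:**
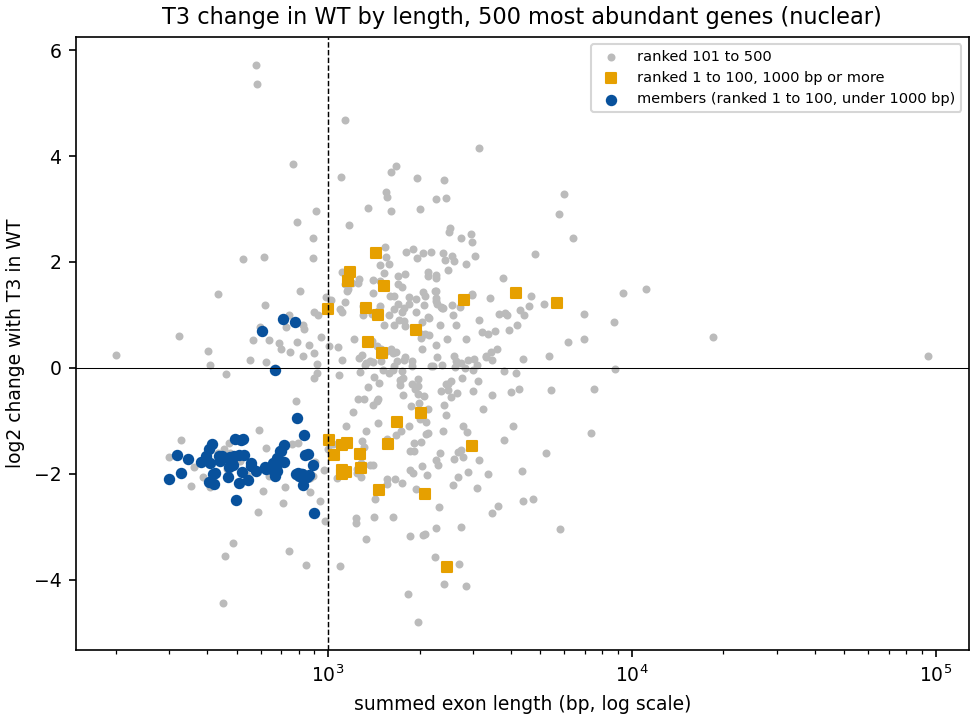
Log2 change with T3 in wild type (vertical) against summed exon length (horizontal, bp, log scale) for nuclear genes among the 500 most abundant, with the 67 short genes as blue circles, the 29 longer genes of the first 100 as orange squares, the following genes up to rank 500 in grey and a dashed line at 1000 bp. Most blue circles lie in a band around -1.80, while orange squares lie on both sides of 0 (15 lowered and 10 raised).

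ENSXETG00000022018 was the last gene inside the first 100 at 2379 CPM, and ENSXETG00000014146 (512 bp), the first outside at 2349 CPM, had a log2 change of -1.76 with T3 in wild type. The longest gene kept was ENSXETG00000016819 with 902 bp. The shortest nuclear gene among the 100 that was left out was ENSXETG00000024534 with 1002 bp, and its log2 change was 1.10. The next by length went the other way and are named after their values were seen. They were ENSXETG00000023004 (1010 bp), with a log2 change of -1.35, and ENSXETG00000027344 (1043 bp), with -1.65.

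The gene models of the 67 had features that the selection did not use. All 67 had 3 to 9 exon blocks (median 5), and none had a single one. Among the 80 nuclear genes under 1000 bp that ranked next, up to 500, 87.5% had 3 to 9 blocks and 5 had a single one, and among those ranked above 500, 71.5% had 3 to 9 blocks and 289 of 2580 had a single one. The genes spanned 1699 to 12532 bp (median 4527), and 34 were on the plus and 33 on the minus strand. They lay on 64 scaffolds, so they were not gathered in one place. Apart from the pair already described, only ENSXETG00000020394 with ENSXETG00000020355 and ENSXETG00000024667 with ENSXETG00000009458 shared a scaffold, at 313873 and 1044668 bp from each other, named here for their place and not by the rule for named genes.

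Small annotated genes lay inside 14 of the 67. These 14 (20.9%) held 30 single-block genes of under 300 bp, on the same strand and between exon blocks of the host. The share was 17.2% in the 29 longer abundant genes, 5% in the 80 short genes that ranked next, up to 500, and 0.775% in all tested genes. As background, many small nucleolar RNAs of vertebrates are encoded in introns of abundantly expressed genes, but the type of the small genes here is not given by the file and was not established. All 14 hosts were lowered by T3 in wild type, as were 48 of the other 53, and the median log2 change was -1.80 in each set. Among the named genes, ENSXETG00000005009 held 3 of them, ENSXETG00000003912 held 2, and ENSXETG00000007220 and ENSXETG00000009802 held 1 each. One gene of the set, ENSXETG00000027840, overlapped exon blocks of a gene on the opposite strand, ENSXETG00000001796, which had 1485 counts in all against 1482612.

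The nearest other tested genes did not follow the set. A gene that did not overlap was found within 100 kb of 66 of the 67, at a median distance of 6663 bp. Of these neighbours 16 were lowered by T3 in wild type (24.2%) and 17 raised, with a median log2 change of -0.01, near the 25.1% and 22.8% of all tested genes. With T3, 8 of the 66 neighbours were called higher in TRα (-/-), beside 11.4% of all tested genes. ENSXETG00000027604 was the neighbour of both ENSXETG00000024043 and ENSXETG00000027606 and is counted for each of them.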

How the data were processed

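From each RNA sample the authors made 3 TruSeq libraries after selecting poly-A RNA, aligned 100 nt paired-end reads to the Ensembl JGI 4.2 genome with STAR and counted reads per gene with featureCounts. The submitters' processing notes name STAR 2.5.3a and featureCounts 1.4.6-p3, and the study's methods name other versions. The deposited table holds the raw count of every gene beside its exon coordinates and summed exon length. Strand and multi-mapped reads are not described in the sources used here. Poly-A selection leaves out most RNA without a poly-A tail, and counts grow with transcript length.

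Of 19921 genes, edgeR's filterByExpr kept 14320. The quasi-likelihood model of edgeR 4.0.16 (R 4.3.3, functions glmQLFit and glmQLFTest) gave each group its own mean and took in all 12 libraries, with TMM scaling. Calls needed a Benjamini-Hochberg adjusted p under 0.05 over all tested genes and a change of 2-fold or more. SE is the log2 change divided by the root of the F statistic. The fit was tested on simulated data. DESeq2 1.42.0, other scalings, filters, a block for the replicate number, other limits of the selection and leaving out each library were alternatives.

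Named genes were the 5 most abundant, the 3 lowest and 3 highest of each comparison, those next to the borders of the selection and pairs within 100 kb; others are marked where they appear. The 67 genes and all lists were chosen with earlier results of these data known. Lists of ribosomal, translation and respiratory genes and of limb cell types were not analysed here, since 0 of 19921 identifiers matched the 28858 entries of the RefSeq annotation of another assembly, and no sequences are printed.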

Additional observations from a re-analysis of the deposited data

Results flagged for a closer look

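In 14 of the named genes the change with T3 differed between the genotypes by 2-fold or more in the interaction test of edgeR. These differences went beyond the spread between technical libraries. Of all tested genes 17.7% had a positive interaction and 16.6% a negative one. Some genes were named because their interaction was among the lowest or highest, so this count is partly set by the choice. The interaction (log2 change in TRα (-/-) minus that in wild type) was negative in ENSXETG00000025663, at -1.52. In the other 13 it was positive. It was 2.08 in ENSXETG00000016819, 2.002 in ENSXETG00000018809, 1.97 in ENSXETG00000015129 and 1.94 in ENSXETG00000021236. It was 1.79 in ENSXETG00000009458, 1.75 in ENSXETG00000003706, 1.63 in ENSXETG00000023100 and 1.62 in ENSXETG00000003912. It was 1.42 in ENSXETG00000027840, 1.30 in ENSXETG00000007220, 1.25 in ENSXETG00000005009, 1.22 in ENSXETG00000009030 and 1.22 in ENSXETG00000009802. With scaling by total counts alone, ENSXETG00000007220 (0.89), ENSXETG00000005009 (0.84), ENSXETG00000009030 (0.81) and ENSXETG00000009802 (0.80) were no longer called.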

How the results depend on the processing

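Each group was 1 RNA pool, so no alternative addresses the spread between tadpoles. The counts and medians of the 67 genes kept their direction and stayed within 1.5 times under DESeq2, its size factors, TMM without the 100 most abundant genes, both other filters, fits of the compared groups alone and each library left out. Leaving out 1 library gave medians from -1.82 to -1.76 for T3 in wild type, -0.41 to -0.36 for T3 in TRα (-/-), 0.046 to 0.065 for genotype without T3, 1.51 to 1.57 for genotype with T3 and 1.42 to 1.47 for the interaction, with each count of calls as in the full fit. Same-numbered libraries did not deviate together (18 correlations from -0.052 to 0.084). The replicate block gave 62 genes lowered by T3 in wild type, 65 higher in TRα (-/-) with T3 and 59 positive interactions, with medians of -1.80, 1.54 and 1.47, and it changed no call count.

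Scaling by total counts alone gave 55 lowered and 3 raised genes for T3 in wild type with a median of -1.26, a median of -0.27 for T3 in TRα (-/-), -0.036 for genotype without T3, 37 higher genes with a median of 1.03 for genotype with T3, and 38 positive and 2 negative interactions with a median of 1.05. It moved the median of all tested genes to 0.49 for T3 in wild type. The 67 lay 1.75 below that median under either scaling. This is so by construction, since scaling moves all genes by about the same log2 amount. Of 90 results of named genes, 12 were no longer called under it and 4 became called.

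Adjusted p alone gave 3 raised genes for T3 in wild type, 63 lowered and 1 raised in TRα (-/-), 22 lower and 31 higher for genotype without T3, 2 lower for genotype with T3 and 4 negative interactions, since changes under 2-fold then count. Taking the 200 most abundant genes gave a set of 98. Of these, 83 were lowered and 5 raised by T3 in wild type, and 1 was lowered in TRα (-/-), where the median was -0.35. Without T3, 8 were higher in TRα (-/-), and with T3, 84 were higher and 1 lower. The interaction was positive in 79 and negative in 3. Shares were 39.2%, 19.3%, 40.6% and 34.3% for untreated wild type, wild type with T3, untreated TRα (-/-) and TRα (-/-) with T3. A length limit of 1500 bp gave a set of 84. Of these, 72 were lowered and 6 raised by T3 in wild type, and the median in TRα (-/-) was -0.33. Without T3, 7 were higher in TRα (-/-), and with T3, 75 were higher. The interaction was positive in 69 and negative in 3. Shares were 43.5%, 22.9%, 45.0% and 39.9% in the same order of groups. These settings hold more genes, and both sets include the 67, of which 62 were lowered and 0 raised by T3 in wild type. Their counts thus come mostly from the same genes and are no separate evidence. The added genes were part of classes with a lower share of lowered genes. Of the 29 longer genes 15 were lowered and 10 raised, and of the 80 short genes ranked next 37 and 15. Of all tested genes 25.1% were lowered and 22.8% raised. With counts of nuclear genes as the denominator the shares of the 67 were 34.8%, 16.4%, 36.8% and 30.6%.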
